A study of Homo sapiens with 12 samples.

Results

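The nuclear genes that replicate, transcribe and stabilise mitochondrial nucleic acids were followed across the 4 groups of libraries. They were picked by name for their roles, by a rule that uses no measured value, though with earlier results of these data known. They are POLRMT, TFAM, TFB1M and TFB2M for transcription, LRPPRC and SLIRP for mRNA stability, POLG and TWNK for DNA replication, and PNPT1 and SUPV3L1 for RNA turnover. All 10 were found, each at 1 gene ID, among 58302 gene IDs in the count table, and all 10 were among the 17849 genes that passed the filter on low counts.

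H520 cells, from a human squamous tumour of the lung, were used here, carrying a lentiviral construct for L1-FGGY (OV-L1-FGGY), a chimeric transcript of a LINE-1 element and FGGY, or the control construct (OV-CTRL). RNA was sequenced in 12 libraries, 3 in each of 4 groups, which the labels give as OV-L1-FGGY cells in DMSO, in ML355 or in NVR, and control cells in DMSO. ML355 inhibits 12-lipoxygenase and was used at 10 μM, and NVR is the reverse transcriptase inhibitor nevirapine, used at 450 μM. DMSO, the solvent of both, was at 0.2% in the DMSO groups, and no level is given for the libraries with ML355 or NVR. In all groups the medium was replaced 5 h after seeding. Each construct was studied in a stably transduced line. Nothing states that the 3 libraries of a group came from separate cultures, so that p-values measure the spread between these libraries only.

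Mitochondria carry a small circular genome that encodes mRNAs of the respiratory chain, rRNAs and tRNAs, while every protein that copies and expresses it is imported from the cytosol. POLRMT, the mitochondrial RNA polymerase, starts transcription with TFAM, which also packages the DNA, and TFB2M, which melts the promoter. The long transcripts are cut into single RNAs, whose mRNAs are bound and kept stable by the LRPPRC-SLIRP complex and degraded by PNPT1 with the helicase SUPV3L1.

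Total counts ran from 16242082 to 27004768 per library. The level of FGGY, in CPM (counts scaled to a common library size), was 267 to 362 in the 6 libraries of OV-L1-FGGY with DMSO or ML355 and 2.99 to 4.82 CPM in the other 6. The libraries labelled NVR were therefore as low in FGGY as the control, which goes against the construct named in their label, and they are called here by the NVR label only. Pearson's r of log2 CPM across genes was at least 0.932 between OV-L1-FGGY with DMSO and ML355 and at least 0.939 between OV-CTRL and the libraries labelled NVR, but 0.706 to 0.774 across these pairs. Of 10 squamous markers, 2 to 4 had over 3 counts in every library of a group, and KRT6A and DSG3 were at 0 in all libraries. Their summed level was 189 to 219 CPM in OV-L1-FGGY with DMSO, 313 to 372 with ML355, 22.0 to 29.7 in OV-CTRL and 9.66 to 20.4 in the libraries labelled NVR. Nearly all of this sum in the first 6 libraries was TRIM29, with 3037 to 3982 counts in DMSO and 5811 to 7746 in ML355, against 25 to 120 in the other 6. TP63, another squamous marker, ran the other way, at 1 to 16 counts in the first 6 and 34 to 108 in the other 6. SOX2, a squamous lineage factor, was at 0 counts in the first 6 libraries and at 128 to 446 in the other 6. KRT14 had 4 to 63 counts in the first 6 and 0 in the other 6, and DSC3 had 0 to 13 and 10 to 56. Of 9 other lung and stromal markers, LUM had 1165 to 4327 counts in the first 6 and at most 2 in the other 6. PTPRC had 13 to 71 and 0. NAPSA ran the other way, at 0 to 4 and 81 to 178, as did NKX2-1 with overlap (5 to 15 and 12 to 32). COL1A1 had 382 to 1223 counts in all 12 libraries. PECAM1 had 39 to 71 with DMSO in OV-L1-FGGY and 0 to 14 elsewhere. SFTPC, SFTPB and CD3E had at most 6. The part of these differences in the values that follow was not tested, and the construct cannot be told apart from whatever else separates the 2 sets of libraries.

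The sequence before the start of the transcription genes is shown because these 4 genes work in the same organelle but did not all run alike. TFAM and TFB2M did run alike, with mean levels falling in the order OV-L1-FGGY with DMSO, ML355, OV-CTRL and NVR label. The windows come from RefSeq, build GRCh38.p14, and end at the RefSeq start of the gene or, for TFAM and TFB1M, at the earlier start that GENCODE gives. They are chr19:633538-633787 (minus strand) for POLRMT, chr10:58385160-58385344 (plus) for TFAM, chr1:246566262-246566511 (minus) for TFB2M and chr6:155314494-155314734 (minus) for TFB1M. Capitals mark matches on either strand to the motifs of NRF1 (GCGCATGC), ETS factors (CCGGAAG) and Sp1 (GGGCGG), and matches on the opposite strand appear as the reverse complement.
POLRMT: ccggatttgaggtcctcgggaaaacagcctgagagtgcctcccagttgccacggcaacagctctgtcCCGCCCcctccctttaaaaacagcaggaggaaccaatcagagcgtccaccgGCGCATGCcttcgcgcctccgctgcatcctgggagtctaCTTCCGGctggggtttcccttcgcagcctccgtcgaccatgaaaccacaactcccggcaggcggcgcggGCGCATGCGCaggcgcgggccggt
TFAM: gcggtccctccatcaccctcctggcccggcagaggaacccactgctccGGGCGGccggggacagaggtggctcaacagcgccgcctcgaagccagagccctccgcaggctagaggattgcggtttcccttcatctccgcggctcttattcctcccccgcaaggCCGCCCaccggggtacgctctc
TFB2M: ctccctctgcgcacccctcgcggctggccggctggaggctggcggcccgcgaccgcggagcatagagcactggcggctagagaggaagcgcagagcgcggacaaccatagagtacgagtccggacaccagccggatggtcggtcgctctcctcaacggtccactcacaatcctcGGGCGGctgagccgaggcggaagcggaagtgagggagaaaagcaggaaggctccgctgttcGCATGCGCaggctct
TFB1M: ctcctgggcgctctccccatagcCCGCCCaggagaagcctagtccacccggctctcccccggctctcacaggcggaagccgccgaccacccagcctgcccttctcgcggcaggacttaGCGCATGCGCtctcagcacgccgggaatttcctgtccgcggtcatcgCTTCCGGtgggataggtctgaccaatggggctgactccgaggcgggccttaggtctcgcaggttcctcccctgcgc

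NRF1 and the ETS factor GABP are textbook activators of nuclear genes for mitochondrial proteins. The NRF1 letters were present in the 250 bases before the start of POLRMT (3 matches, 2 of them overlapping), TFB1M (2 overlapping matches) and TFB2M (1 match), and in 2.60% of 34943 windows of that length. The ETS letters were present for POLRMT, TFB1M and SLIRP and in 8.48% of all windows. TFAM held neither and had 5 matches to the Sp1 letters, which 42.5% of all windows hold at least once, 3 of them in the bases left out above. The YY1 letters (AAGATGG) were found for LRPPRC and SLIRP and in 3.70% of all windows. CRE (TGACGTCA) and E-box (CACGTG) letters were in none of the 9 windows, against 1.63% and 6.32% of all. TWNK was the factor without a window. These are matches of letters, and binding was not measured.

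After ML355, the mRNAs of TWNK, TFB2M and LRPPRC fell and those of POLG and SUPV3L1 rose, relative to DMSO in OV-L1-FGGY. These calls are from edgeR's quasi-likelihood test with an adjusted p under 0.01, with which 44.8% of all genes tested were called (21.3% higher and 23.5% lower). The count of 5 called factors of 10 was thus near the share of all genes. The median log2 fold change of the 10 factors was -0.30, against 0 over all genes. The 3 ML355 libraries did not overlap the 3 DMSO libraries in any of the 10 factors, as for 62.6% of all genes. In bulk RNA, fewer cells of a type and less RNA per cell cannot be told apart.

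The replication pair moved in opposite directions with ML355. TWNK, the helicase that opens mitochondrial DNA ahead of the polymerase, was at 20.9, 20.4 and 21.7 CPM with DMSO and at 4.53, 8.95 and 6.82 CPM with ML355. Every ML355 library lay under every DMSO library, and TWNK fell 3.11-fold (log2 fold change -1.63, standard error 0.18, edgeR adjusted p = 1.41e-06). POLG, the catalytic subunit of the mitochondrial DNA polymerase, was at 47.7, 52.6 and 50.3 CPM with DMSO and at 79.1, 112 and 97.3 CPM with ML355. All 3 ML355 libraries were higher, and POLG rose 1.91-fold (log2 fold change 0.94, standard error 0.21, edgeR adjusted p = 0.00127). With library size alone as the scaling, which moved the median of all genes by -0.13, the POLG call was lost (0.81, edgeR adjusted p = 0.0119).

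The turnover pair also separated. SUPV3L1, an RNA helicase, was at 61.9, 62.5 and 63.1 CPM with DMSO and at 88.7, 92.8 and 94.0 CPM with ML355. The groups were far apart beside their spread, and SUPV3L1 rose 1.47-fold (log2 fold change 0.55, standard error 0.10, edgeR adjusted p = 1.98e-04). PNPT1, the polynucleotide phosphorylase with which it degrades RNA, was at 81.8, 80.2 and 79.7 CPM with DMSO and at 72.3, 69.3 and 58.7 CPM with ML355. The ML355 values were all lower, but the log2 fold change of -0.27 ± 0.10 (SE, edgeR adjusted p = 0.0343) was not called.

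Of the transcription genes, TFB2M passed the test after ML355. TFB2M was at 73.0, 65.8 and 66.8 CPM with DMSO and at 43.2, 54.7 and 41.2 CPM with ML355. Its highest ML355 library stayed under its lowest DMSO library, and it fell 1.48-fold (log2 fold change -0.56, standard error 0.12, edgeR adjusted p = 9.33e-04). TFB1M, the paralog that methylates the small rRNA, was at 15.4, 14.9 and 14.5 CPM with DMSO and at 12.5, 10.7 and 10.6 CPM with ML355. The log2 fold change was -0.41 (edgeR adjusted p = 0.0418), which was called only with library size alone as the scaling (-0.54, edgeR adjusted p = 0.00856) or at a threshold of 0.05. TFAM was at 141, 132 and 124 CPM with DMSO and at 93.5, 112 and 110.1 CPM with ML355, a log2 fold change of -0.33 (edgeR adjusted p = 0.0315) that was not called. POLRMT was at 145, 155 and 141 CPM with DMSO and at 164, 161 and 202 CPM with ML355. Its log2 fold change of 0.25 was not called (95% interval -0.01 to 0.51, edgeR adjusted p = 0.0874).

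LRPPRC, which holds mitochondrial mRNAs in a translatable state, was at 420.5, 352 and 382 CPM with DMSO and at 302, 322 and 265 CPM with ML355. The groups did not overlap, and LRPPRC fell 1.30-fold (log2 fold change -0.38, standard error 0.11, edgeR adjusted p = 0.00746). This call was lost in 7 of 16 alternatives, among them those without OV-L1-FGGY DMSO replicate 1 (-0.31, edgeR adjusted p = 0.0458) or 3 (-0.38, 0.0211) and without ML355 replicate 1 (-0.39, 0.0178) or 3 (-0.30, 0.0361). The call was also lost with the scaling of DESeq2 (-0.36, edgeR adjusted p = 0.0108). It was lost too with the replicate block (-0.38, edgeR adjusted p = 0.0126) and without mitochondrially encoded genes (-0.36, 0.0121). SLIRP, its small RNA-binding partner, was at 36.0, 45.1 and 39.4 CPM with DMSO and at 71.3, 53.0 and 46.2 CPM with ML355. The lowest ML355 library was barely above the highest DMSO library, and the log2 fold change of 0.50 ± 0.22 (SE, edgeR adjusted p = 0.0594) was not called. It was called in a fit of these 2 groups alone (0.51, edgeR adjusted p = 0.00452) and without a filter on low counts (0.48, edgeR adjusted p = 0.00272).

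The RNAs on which these factors act were measured in the same libraries. The 13 mitochondrially encoded mRNAs made up 5.39 to 6.09% of counts with DMSO and 0.637 to 0.828% with ML355, and all 13 were called lower, while the rRNAs were called higher. Whether the factors had a part in this was not tested.

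**Figure D1:**
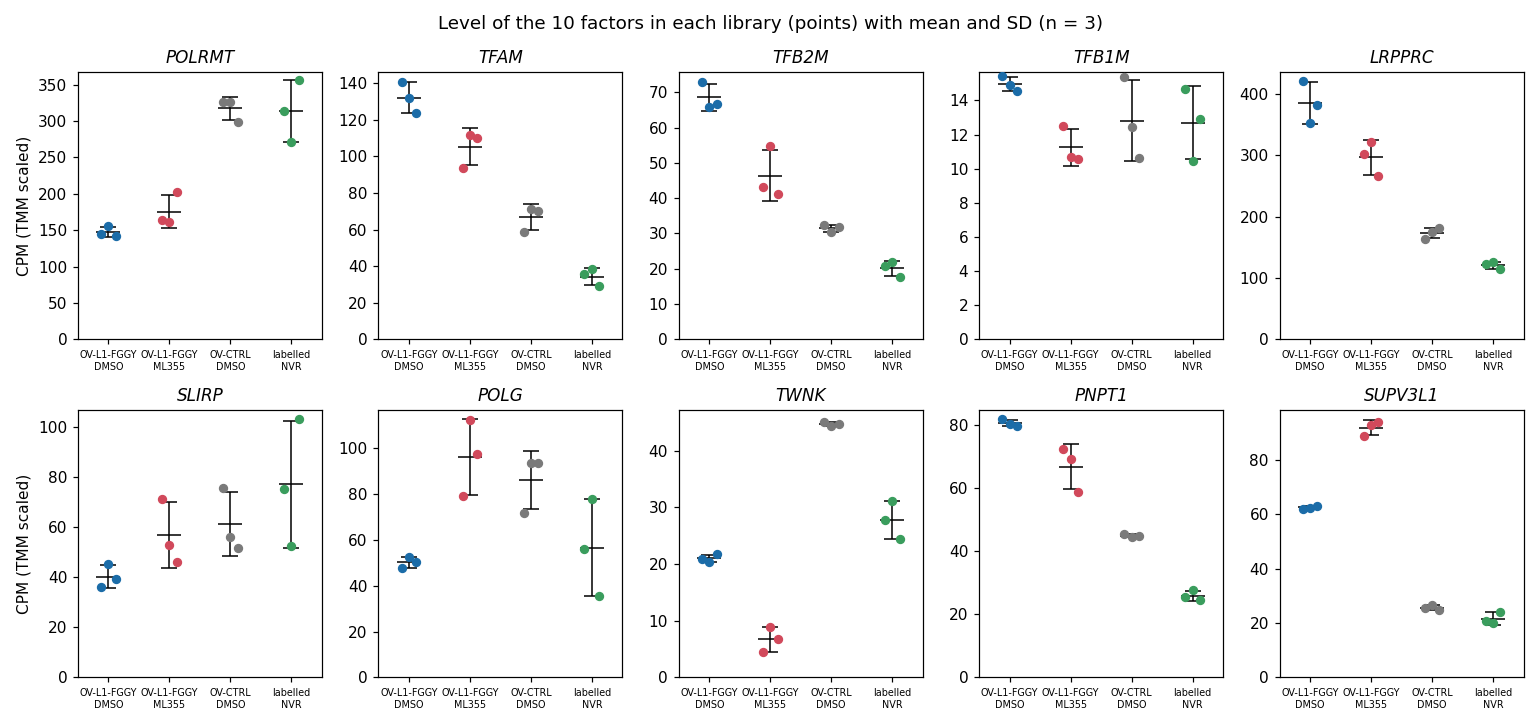
Level of each factor (CPM, TMM scaled) in every library, with the mean and SD of the 3 libraries of each group. TWNK was lowest with ML355 (4.53 to 8.95 CPM), SUPV3L1 was highest there (88.7 to 94.0 CPM), and TFAM, TFB2M, LRPPRC and PNPT1 were lowest in the libraries labelled NVR.

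Relative to OV-CTRL in DMSO, 5 of the 10 factors were lower in the libraries labelled NVR and none was higher. The 5 were TFAM, TFB2M, LRPPRC, TWNK and PNPT1. In edgeR 29.8% of all genes were called in this comparison, 15.3% lower and 14.5% higher. With library size alone, which moved the median of all genes by -0.16, 36.3% of the called genes were higher in place of 48.8%. The median log2 fold change of the factors was -0.56, against 0 over all genes. The groups did not overlap in 6 factors, the 5 above and SUPV3L1, as in 52.9% of all genes.

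TFAM was at 58.7, 71.4 and 70.1 CPM in OV-CTRL and at 35.4, 38.1 and 29.1 CPM in the libraries labelled NVR. Every library labelled NVR was below every control library, and TFAM was 1.95-fold lower (log2 fold change -0.96, standard error 0.13, edgeR adjusted p = 2.10e-05). PNPT1 was at 45.5, 44.4 and 44.8 CPM in OV-CTRL and at 25.4, 27.7 and 24.4 CPM in the libraries labelled NVR. The control libraries were nearly equal, and PNPT1 was 1.74-fold lower in those labelled NVR (log2 fold change -0.80, standard error 0.11, edgeR adjusted p = 2.43e-05). TFB2M was at 32.3, 30.4 and 31.7 CPM in OV-CTRL and at 20.7, 21.9 and 17.8 CPM in the libraries labelled NVR. Its log2 fold change was -0.64 (standard error 0.13, edgeR adjusted p = 7.23e-04), with no overlap.

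LRPPRC was at 164, 175 and 181 CPM in OV-CTRL and at 122, 125 and 114 CPM in the libraries labelled NVR. The groups stood apart, with a log2 fold change of -0.52 ± 0.11 (SE, edgeR adjusted p = 0.00120). TWNK was at 45.1, 44.4 and 44.8 CPM in OV-CTRL and at 27.7, 31.2 and 24.4 CPM in the libraries labelled NVR, a log2 fold change of -0.69 ± 0.16 (SE, edgeR adjusted p = 0.00313). The direction for TWNK held in every library, but the call was lost without control replicate 2 (edgeR adjusted p = 0.0130) or 3 (0.0106) and without replicate 1 (0.0152) or 3 (0.0128) of the libraries labelled NVR.

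The remaining 5 factors were not called against OV-CTRL. POLRMT, the polymerase itself, was at 327, 327 and 298 CPM in OV-CTRL and at 314, 271 and 357 CPM in the libraries labelled NVR. These values overlapped, with a log2 fold change of -0.02 (95% interval -0.27 to 0.24, edgeR adjusted p = 0.938) whose sign turned under 6 alternatives. TFB1M was at 15.4, 12.4 and 10.7 CPM against 14.7, 10.4 and 12.9 CPM, also overlapping (-0.02, 95% interval -0.36 to 0.32), and its sign turned under 5 alternatives. SLIRP was at 75.6, 55.9 and 51.7 CPM in OV-CTRL and at 75.1, 52.6 and 103 CPM in the libraries labelled NVR, the widest spread of the 10 on the CPM scale after POLRMT (0.33, edgeR adjusted p = 0.222). SUPV3L1 was at 25.7, 26.5 and 24.7 CPM against 20.8, 20.0 and 24.2 CPM. The 2 groups of SUPV3L1 nearly touched, with a log2 fold change of -0.24 (edgeR adjusted p = 0.0671) that was called with library size alone (-0.41, edgeR adjusted p = 0.00794). POLG was at 71.7, 93.4 and 93.6 CPM in OV-CTRL and at 56.1, 78.0 and 35.6 CPM in the libraries labelled NVR. Replicate 2 labelled NVR lay inside the control range, and without it the log2 fold change of -0.60 (edgeR adjusted p = 0.0277) became -0.91 (edgeR adjusted p = 5.43e-04). Over 16 alternatives the fold change of POLG ran from -0.91 to -0.35, and it was called in 3 of them.

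The mitochondrially encoded mRNAs made up 3.64 to 3.88% of counts in OV-CTRL and 4.73 to 5.34% in the libraries labelled NVR. There 5 of the 13 were called higher and 0 lower by edgeR, beside 14.5% and 15.3% of all genes. The 2 rRNAs were called higher here too (median log2 fold change 1.41), as they were with ML355 (1.04).

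**Figure D2:**
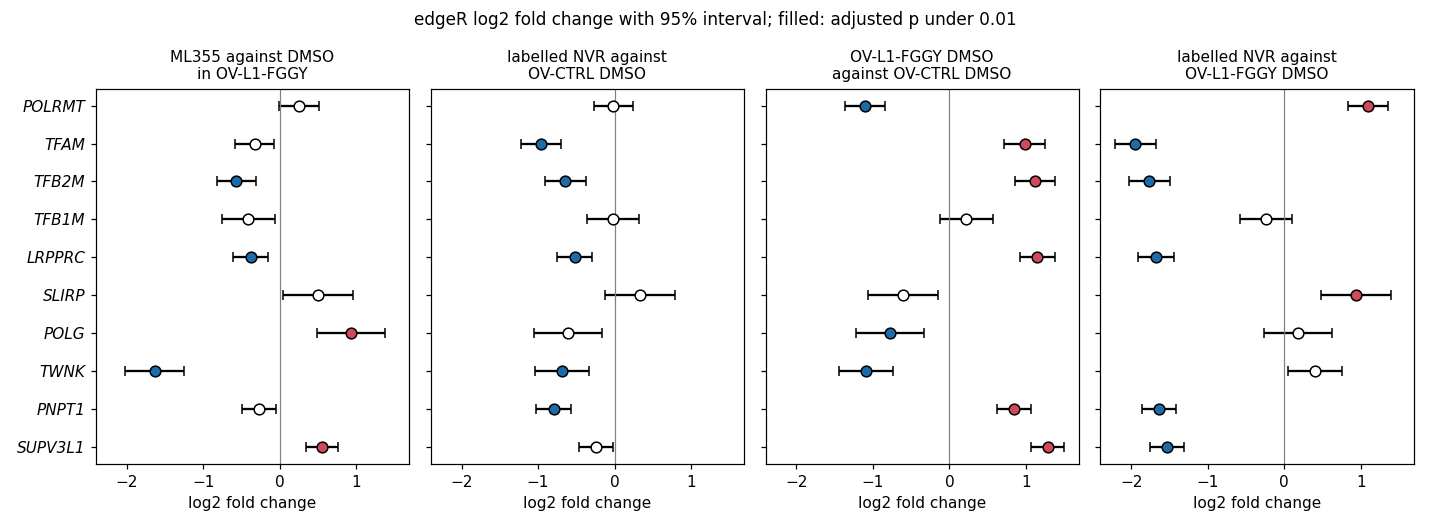
Log2 fold change of each factor from edgeR in 4 comparisons, with bars for the 95% interval, red for called higher, blue for called lower and white for not called. With ML355 the fold changes ran from -1.63 (TWNK) to 0.94 (POLG), and for the libraries labelled NVR relative to OV-CTRL from -0.96 (TFAM) to 0.33 (SLIRP).

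The change with ML355 was set against that of the libraries labelled NVR relative to OV-CTRL. By the labels the second crosses the construct, so that this contrast draws on both DMSO groups. The difference of the 2 log2 fold changes in the same edgeR fit called 34.1% of all genes (17.3% higher and 16.8% lower). This difference called 5 of the 10 factors. POLG differed most, by 1.54 (standard error 0.30, edgeR adjusted p = 5.11e-04), and SUPV3L1 differed by 0.80 (standard error 0.14, edgeR adjusted p = 2.94e-04). Both calls held in all 21 alternatives that set no limit on the fold change. TWNK was lower in both comparisons, and its 2 fold changes differed by -0.95 (edgeR adjusted p = 0.00436). The differences of TFAM (0.63, edgeR adjusted p = 0.00726) and PNPT1 (0.53, edgeR adjusted p = 0.00805) were positive. These last calls were lost in 6 of 21 alternatives for TWNK, 12 for TFAM and 16 for PNPT1. For TWNK they were lost with library size alone and without OV-L1-FGGY DMSO replicate 1 or 3, ML355 replicate 3, control replicate 2 or NVR replicate 1 (-0.96 to -0.92, edgeR adjusted p up to 0.0124 without 1 library). For TFAM every fit without 1 library lost the call (0.51 to 0.68, edgeR adjusted p up to 0.0292), except those without ML355 replicate 1, control replicate 1 or NVR replicate 2. For PNPT1 every such fit lost it (0.46 to 0.54, edgeR adjusted p up to 0.0283), except those without ML355 replicate 3 or NVR replicate 2. For TFB2M (0.08, 95% interval -0.29 to 0.45) and LRPPRC (0.15, 95% interval -0.18 to 0.47) no difference between the changes was called.

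Partners of a complex or process were then compared within each library, where the log2 ratio of counts does not depend on scaling. With 3 against 3 libraries the exact permutation test cannot go below a 2-sided p of 0.1, and 16 tests were made. The log2 ratio of POLG to TWNK was 1.26 ± 0.093 (SD, n = 3) for DMSO in OV-L1-FGGY and 3.87 ± 0.24 with ML355. It was 0.93 ± 0.23 in OV-CTRL and 0.96 ± 0.39 in the libraries labelled NVR, so that the 3 ML355 libraries stood alone. The difference with ML355 was 2.61 (exact permutation p = 0.1, adjusted p = 0.16), and it was 2.48 to 2.72 with each library left out.

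The ratio of LRPPRC to SLIRP was 3.26 in OV-L1-FGGY with DMSO, 2.40 with ML355, 1.52 in OV-CTRL and 0.70 in the libraries labelled NVR, as group means of the log2 ratio. ML355 libraries lay under DMSO libraries (difference -0.86, exact permutation p = 0.1), while those labelled NVR overlapped OV-CTRL (-0.82, exact permutation p = 0.2). The ratio of PNPT1 to SUPV3L1 was negative in every ML355 library (mean log2 -0.47) and positive in the other 9 (means 0.37, 0.81 and 0.26 in OV-L1-FGGY DMSO, OV-CTRL and the libraries labelled NVR). In replicate 3 labelled NVR it was 0.0098, so that the 2 counts were nearly equal. The group differences of this ratio were as follows. It differed from DMSO by -0.83 with ML355 and by -0.55 between the libraries labelled NVR and OV-CTRL, each with an exact permutation p of 0.1. The ratio of TFB1M to TFB2M was -2.19 and -2.04 in mean in OV-L1-FGGY with DMSO and ML355, -1.31 in OV-CTRL and -0.67 in the libraries labelled NVR. The ML355 libraries overlapped those with DMSO in this ratio (0.16, exact permutation p = 0.4).

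**Figure D3:**
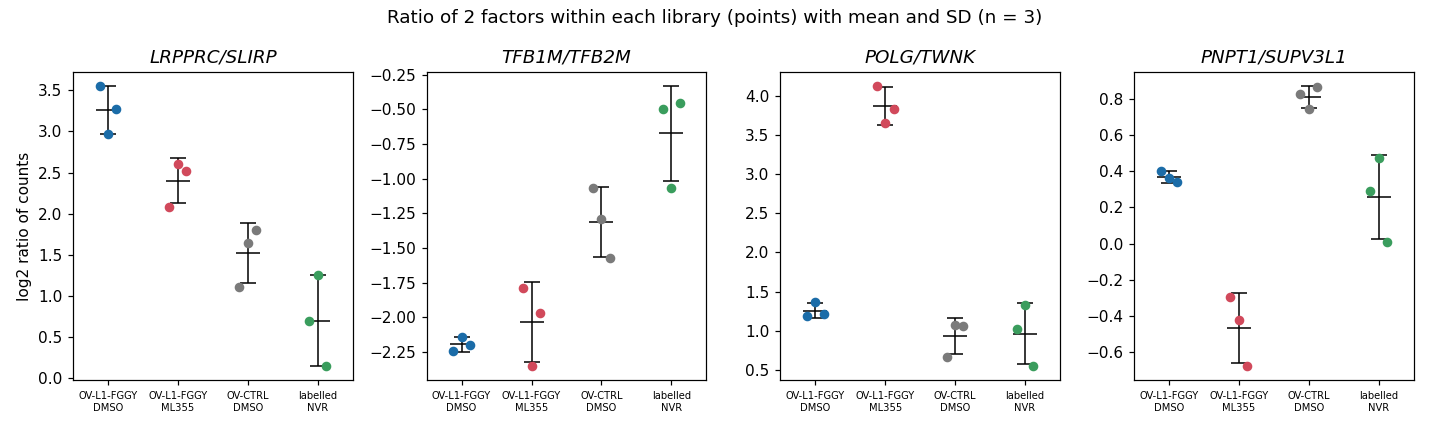
Log2 ratio of the counts of 2 factors within each library, with the mean and SD of the 3 libraries of each group. POLG to TWNK was 3.87 in mean with ML355 against 0.93 to 1.26 in the other groups. PNPT1 to SUPV3L1 was under 0 with ML355 only and close to 0 (0.0098) in replicate 3 labelled NVR.

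Between the DMSO groups, 8 of 10 factors differed. TFAM, TFB2M, LRPPRC, PNPT1 and SUPV3L1 were higher and POLRMT, POLG and TWNK lower in OV-L1-FGGY than in OV-CTRL. In edgeR 68.7% of all genes were called here, 32.5% higher and 36.2% lower, and the groups did not overlap in 81.5% of genes and in 9 of the 10 factors. The factors had a median log2 fold change of 0.53, against -0.11 over all genes.

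POLRMT was thus opposite in direction to its cofactors. In the libraries given above it was at 141 to 155 CPM in OV-L1-FGGY and 298 to 327 CPM in OV-CTRL, a log2 fold change of -1.11 ± 0.12 (SE, edgeR adjusted p = 4.96e-07). TFAM and TFB2M were higher by 0.98 and 1.12 (edgeR adjusted p = 2.12e-06 and 4.30e-07). SUPV3L1 was higher by 1.29 (edgeR adjusted p = 9.31e-09), LRPPRC by 1.15 (edgeR adjusted p = 7.66e-08) and PNPT1 by 0.84 (edgeR adjusted p = 1.69e-06), which are the highest, second and lowest of the 5 fold changes called higher. TWNK differed by -1.09 (edgeR adjusted p = 1.74e-05) and POLG by -0.78 (edgeR adjusted p = 0.00306). The POLG call was lost without replicate 1 (edgeR adjusted p = 0.0155) or 3 (0.0119) of OV-L1-FGGY with DMSO, without replicate 2 (0.0156) or 3 (0.0143) of OV-CTRL, and with library size alone (0.0187). SLIRP (-0.60, edgeR adjusted p = 0.0183) and TFB1M (0.22, edgeR adjusted p = 0.215) were not called. DESeq2 called SLIRP lower (-0.65, DESeq2 adjusted p = 0.00859). SLIRP was also called lower without a filter on low counts (-0.68, edgeR adjusted p = 4.53e-06). The same held in a fit of these 2 groups alone (-0.59, edgeR adjusted p = 0.00130).

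The comparison that the labels imply is that with OV-L1-FGGY in DMSO, against which the libraries labelled NVR had 2 factors higher and 5 lower. This comparison shares its DMSO libraries with the ML355 comparison and with that of the DMSO groups. All genes were called at 73.6% by edgeR (38.2% higher and 35.4% lower), and 8 factors did not overlap, against 82.5% of all genes. The higher ones were POLRMT (1.09, edgeR adjusted p = 4.82e-07) and SLIRP (0.94, edgeR adjusted p = 8.69e-04). The lower ones were TFAM (-1.95), TFB2M (-1.76), LRPPRC (-1.67), PNPT1 (-1.64) and SUPV3L1 (-1.53), with edgeR adjusted p from 6.18e-10 to 1.97e-09. TWNK (0.41, edgeR adjusted p = 0.0348), POLG (0.17) and TFB1M (-0.24) were not called. TWNK was called higher under 4 alternative fits, among them DESeq2 (0.49, DESeq2 adjusted p = 0.00726).

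Levels were compared between the factors as CPM per kilobase of the GENCODE canonical transcript. SLIRP had the highest level in every group, from 107 CPM per kilobase in OV-L1-FGGY with DMSO to 205 in the libraries labelled NVR. Its canonical transcript is 376 bases long and all its exons together cover 2631, so that its rank depends on the length used. The same holds for LRPPRC, with 6603 and 34689 bases, beside 3771 and 5060 for POLRMT. LRPPRC was second in OV-L1-FGGY with DMSO (58.3 CPM per kilobase, POLRMT 39.0), and POLRMT was second in OV-CTRL (84.2, LRPPRC 26.2) and in the libraries labelled NVR (83.3, LRPPRC 18.3). With ML355, POLRMT (46.5) and LRPPRC (44.9) overlapped. The lowest level was that of TFB1M in 3 groups, at 4.53 to 5.35 CPM per kilobase, and that of TWNK with ML355 (1.87, next TFB1M at 4.02). TFB2M exceeded TFB1M in every group.

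The genes whose levels ran most like 3 of the factors were ranked by the root mean square distance of centred log2 CPM over the 4 group means, among 14357 genes. POLRMT was closest to TMEM107 (0.0149), GARNL3 and TRAF2, and its nearest factor was SLIRP at rank 860 (0.276). TFAM was closest to MTREX (0.0264), WDR3 and ALG11, with PNPT1 at rank 40 (0.119). LRPPRC was closest to USP14 (0.0304), ZDHHC20 and FH, with TFB2M at rank 39 (0.0886). With 4 points, of libraries in 2 sets, such likeness is a description only.

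Other genes of mitochondrial DNA replication and maintenance, 25 in number, were called higher in 9 and lower in 6 cases after ML355, against 21.3% higher and 23.5% lower over all genes. The ribonucleotide reductase subunit RRM2B (1.80), the DNA ligase LIG3 (1.50) and the topoisomerase TOP1MT (1.29) rose on the log2 scale. Thymidine kinase TK2 fell by 0.94, the exonuclease MGME1 by 0.70 and SUCLA2 by 0.72, with edgeR adjusted p of at most 8.74e-05 in these 6. Relative to OV-CTRL, in the libraries labelled NVR 3 were higher and 6 lower (all genes 14.5% and 15.3%), with the nuclease-helicase DNA2 at -1.64 and MGME1 at -0.99 on the lower side and the nucleotide carrier SLC25A4 at 0.87 and TOP1MT at 0.80 on the higher. Between the DMSO groups 7 were higher and 11 lower in OV-L1-FGGY (all genes 32.5% and 36.2%). SUCLA2 was 3.99-fold higher and the fusion GTPase MFN2 higher by 1.43 in log2, and MPV17 (-1.26) and the protease LONP1 (-1.40) were lower.

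Of 6 genes for elongation and termination, 1 rose and 3 fell after ML355 (all genes 21.3% and 23.5%). MTERF3 rose by 1.24, whereas MTRES1 (-1.60), MTERF1 (-1.10) and MTERF4 (-0.95, edgeR adjusted p = 0.00268) fell. The MTERF4 call was lost without OV-L1-FGGY DMSO replicate 3 (-0.78, edgeR adjusted p = 0.0199) and without ML355 replicate 1 (-0.70, 0.0150) or 3 (-0.89, 0.0137). Relative to OV-CTRL, in the libraries labelled NVR 1 was higher, MTRES1 (0.69, edgeR adjusted p = 0.00652), and 0 lower (all genes 14.5% and 15.3%). That call was lost in 7 alternatives, among them those without control replicate 2 (0.63, edgeR adjusted p = 0.0360) or 3 (0.61, 0.0374) and without NVR replicate 1 (0.73, 0.0170) or 3 (0.54, 0.0356). Between the DMSO groups 2 were higher, MTERF1 and MTERF2 (1.15 each), and 2 lower, MTERF4 (-1.09) and MTERF3 (-0.51), beside 32.5% and 36.2% of all genes. The MTERF3 call was lost with library size alone (edgeR adjusted p = 0.0209), without OV-L1-FGGY DMSO replicate 1 (-0.43, 0.0160) or 3 (-0.46, 0.0136) and without control replicate 2 (-0.49, 0.0117).

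Of 33 genes for RNA processing and turnover, 4 rose and 11 fell after ML355, beside 21.3% and 23.5% of all genes. DDX28, an RNA helicase of ribosome assembly, fell by 3.27, TRMT10C, a subunit of RNase P, by 1.76 and the pseudouridine synthase TRUB2 by 1.20, all on the log2 scale with edgeR adjusted p of at most 6.13e-07. RPUSD3 (1.22), the carrier SLC25A26 (0.95) and the phosphodiesterase PDE12 (0.56) rose, the call of PDE12 being lost with library size alone (0.44, edgeR adjusted p = 0.0290). Relative to OV-CTRL, in the libraries labelled NVR 2 were higher (RPUSD3 at 0.60 and RPUSD4 at 0.50) and 10 lower, among them the methyltransferase MRM2 (-0.84) and the poly(A) polymerase MTPAP (-0.58), beside 14.5% and 15.3% of all genes. The RPUSD3 call was lost without control replicate 3 (0.52, edgeR adjusted p = 0.0115) and in a fit of the 2 groups alone (0.0129). The RPUSD4 call was lost with library size alone (0.35, edgeR adjusted p = 0.0385), without control replicate 2 (0.47, 0.0173) or 3 (0.47, 0.0140) and without NVR replicate 1 (0.49, 0.0125). Between the DMSO groups 13 were higher and 9 lower, with FASTKD3 at 2.66, TRMT10C at 1.76, MRM1 at -3.82 and RPUSD3 at -1.79, beside 32.5% and 36.2% of all genes.

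Of 19 regulators of mitochondrial biogenesis tested, out of 20 listed, 8 rose and 4 fell after ML355, beside 21.3% and 23.5% of all genes. The orphan receptor ESRRA (0.96), TFE3 (0.90) and NFE2L2 (0.60) rose, the call of NFE2L2 being lost with library size alone (0.48, edgeR adjusted p = 0.0142). MYC (-0.95), the AMPK subunit PRKAA2 (-0.87) and the coactivator PPARGC1B (-1.41) fell. Relative to OV-CTRL, in the libraries labelled NVR 1 was higher, PPARA (0.73), and 7 lower, among them PPRC1 (-1.19) and MYC (-0.70), beside 14.5% and 15.3% of all genes. The PPARA call was lost with library size alone (0.58, edgeR adjusted p = 0.0252) and without control replicate 2 (0.70, 0.0128). Between the DMSO groups 8 were higher and 4 lower in OV-L1-FGGY, beside 32.5% and 36.2% of all genes. PPARGC1A, the coactivator known as PGC-1alpha, was at 24.9 ± 3.20 CPM (SD, n = 3) against 0.485 ± 0.171 CPM in OV-CTRL, a fitted log2 difference of 5.66 (edgeR adjusted p = 3.08e-11). PRKAA2 was higher by 3.12, and ESRRA (-1.28) and TFE3 (-0.64) were lower.

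Relative to OV-L1-FGGY in DMSO, those labelled NVR had 9 genes higher and 10 lower in the replication list, 2 and 2 in elongation and termination, 9 and 19 in RNA processing, and 4 and 11 among the regulators, beside 38.2% higher and 35.4% lower of all genes.

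**Figure D4:**
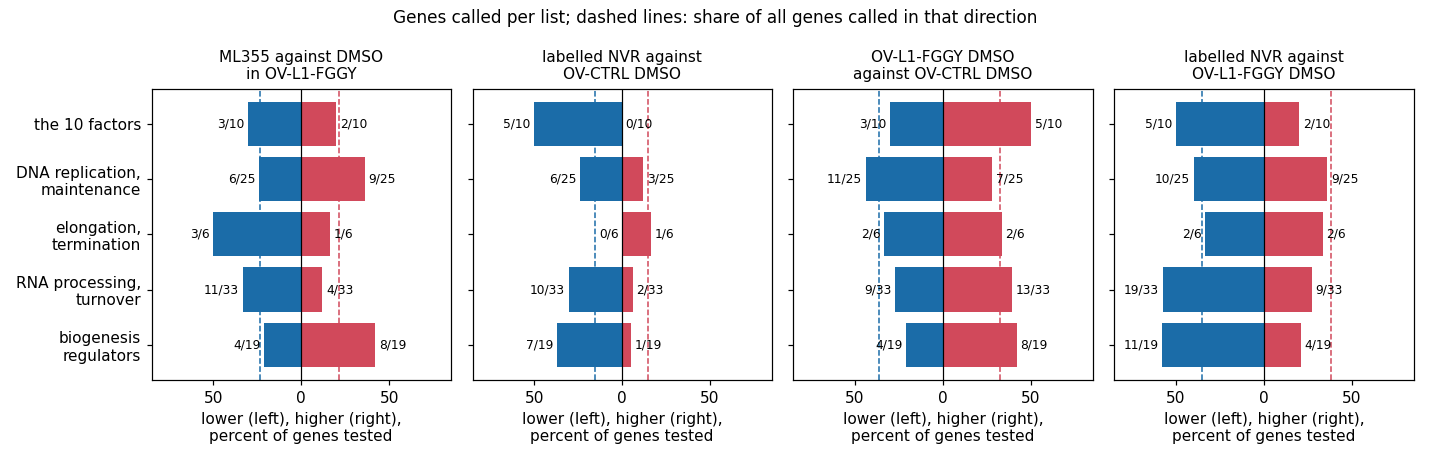
Percent of tested genes called higher (red, right) or lower (blue, left) by edgeR at an adjusted p under 0.01 in the 10 factors and 4 other lists, with the counts beside the bars and dashed lines for the share of all genes. After ML355 the RNA processing list had 11 lower and 4 higher of 33, and the biogenesis regulators had 8 higher and 4 lower of 19.

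Some reads could not be assigned with certainty, since the strand setting of the counting is not given in the sources used here. TWNK shares 149 bases of exon with MRPL43 on the opposite strand. The mean count of MRPL43 was 429 in OV-L1-FGGY with DMSO and 896 with ML355. TWNK counts there were 364, 389 and 431 and then 92, 174 and 130. In OV-CTRL and the libraries labelled NVR the mean count of MRPL43 was 1943 and 2178, beside 1126 and 614 for TWNK. Between the DMSO groups both genes were thus lower in OV-L1-FGGY. POLG shares 458 of its 8280 exon bases with FANCI, whose mean count was 2791 with DMSO and 1715 with ML355. For POLG these means were 945 and 1879. In OV-CTRL and the libraries labelled NVR the mean count of FANCI was 2710 and 704, beside 2179 and 1294 for POLG, both lower with the NVR label. Whether reads of these partners add to the differences of TWNK and POLG was not tested. TFB1M shares 1264 of 4111 exon bases with TIAM2, which had a mean count of at most 94 in any group, against 221 to 321 for TFB1M. SLIRP shares 118 of 2631 exon bases with SNW1 on the opposite strand, whose mean count was 1223 with DMSO and 1987 with ML355, against 756 and 1119 for SLIRP. The copy POLRMTP1 had 24 to 206 counts, beside 2527 to 8369 for POLRMT.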

How the data were processed

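RNA of the 12 libraries was sequenced, aligned and counted by the authors with STAR 2.5.3a and HTSeq 0.11.2 on hg38, and the deposited table holds whole-number counts per Ensembl gene ID, with no normalization. The annotation, the strand setting and the length of treatment are not given in the sources used here. The labels name a TruSeq kit and the methods an NEB kit.

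IDs were given symbols from GENCODE release 44 (57532 of 58302). Groups follow the labels, and the columns headed DMSO were taken as the control group, whose titles were the DMSO titles left. Counts were tested in R 4.3.3 with edgeR 4.0.16 (filterByExpr, TMM, a mean per group over all 12 libraries, fitted by robust quasi-likelihood, Benjamini-Hochberg adjusted p under 0.01), and CPM uses the TMM library sizes. The common biological coefficient of variation was 0.143. At 16242082 to 27004768 counts per library, the lowest count of a factor was 92. The fits were tested on simulated data with known changes. There edgeR called 148 of 200 genes given an absolute log2 fold change of 1 with ML355, and 1 unchanged gene.

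Alternatives used limma 3.58.1 (voom), DESeq2 1.42.0, other scalings, filters and thresholds, a replicate block, a fit of the groups compared alone and each library left out. Named genes were the 10 factors and, from each other list, up to 3 called genes with the smallest adjusted p in each direction after ML355 and up to 2 in the other comparisons. Genes most like a factor had a mean of at least 1 CPM. The members and lists were chosen with earlier results of these data known. Ratios were tested by exact permutation (scipy 1.17.1), with adjustment over 16 tests.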

Additional observations from a re-analysis of the deposited data

How the results depend on the processing

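Replicate numbers did not pair the libraries (correlations of same-numbered deviations from -0.35 to 0.17), so they share only a number. With the replicate block edgeR called 4, 5, 7 and 8 factors with ML355, NVR against OV-CTRL, NVR against OV-L1-FGGY and between the DMSO groups, and 3 in the difference of changes; over all genes it called 7583, 4754, 12874 and 11979. At an adjusted p under 0.05, 8 factors and 10197 of 17849 genes were called with ML355. With an added limit of 1 on the absolute log2 fold change, 1 factor was called with ML355, 0 against OV-CTRL, 5 between the DMSO groups and 1 in the difference. Over all genes this limit left 4590, 2344 and 9115 calls in the first 3. The difference called 2 factors with library size alone, 3 with at least 10 counts in every library and 2 to 5 with each library left out. NVR against OV-CTRL called 3510 to 6107 genes with each library left out, the lowest without control replicate 2. The log2 ratio of POLG to TWNK between NVR and OV-CTRL ranged from -0.15 to 0.24, and that of PNPT1 to SUPV3L1 between NVR and OV-L1-FGGY from -0.22 to 0.013, with each library left out; the causes were not tested. SUPV3L1, TFB2M and TWNK kept their ML355 calls in all 16 alternatives that set no limit on the fold change. Library size alone moved the median of all genes by -0.24 for NVR against OV-L1-FGGY, where it called TFB1M lower (-0.49, edgeR adjusted p = 0.00919).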
